A study of Mus musculus with 18 samples.

Results

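Bone marrow-derived macrophages (BMDMs) of C57BL/6.NOD-*Aec1Aec2* (SjSS) and C57BL/6 (B6) mice differed in 44 genes outside chromosomes 1 and 3 in the same direction and by a factor of 2 or more whether the cells were left as controls, given apoptotic cells (ACs) or given CpG. Of the 44, 34 genes were higher and 10 lower in SjSS BMDMs. The genes were chosen by group means of CPM (the count of a gene per 1000000 counts in the column total of its sample): the ratio of SjSS to B6, with 0.05 CPM added to both means, had to be 2 or more in all 3 treatments or 0.5 or less in all 3, and the higher strain had to reach a mean of 1 CPM in each treatment. Genes of chromosomes 1, 3, X, Y and M were not eligible. The table held 20615 genes, 17207 of them on the eligible chromosomes and 10270 of those at that level, so the 44 were 0.428% of the genes that could qualify. Because the strain difference itself chose these genes, it is described below and not tested. The tests are kept for the response of each strain to ACs and CpG, a contrast that the choice did not use. The choice did use the group means of all 3 treatments, so it can limit which responses are seen among the members.

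The 18 samples formed 6 groups of 3: both strains were left untreated as controls, given ACs or given CpG. All cells came from female mice of 7 to 12 weeks. Bone marrow was grown to day 7 with supernatant of L929 cells, a source of M-CSF. AC treated BMDMs received 5 dying thymocytes for each macrophage for 2 h and were collected 3 h after washing per the labels (the study's methods state a longer time), and CpG treated BMDMs received 1 µM of the oligonucleotide, a ligand of Toll-like receptors in the endosome, for 6 h. SjSS is a congenic line, in which the intervals *Aec1* and *Aec2* of the NOD mouse were bred onto the B6 genome, and B6 mice served as controls without them. BMDMs came from 3 mice of each strain, and whether the equally numbered samples of a strain came from the same mouse is not given in the sources used here. The adjusted p-values therefore measure the spread between these samples. Column totals ran from 30688336 to 57139662 counts. The macrophage list (*Csf1r*, *Adgre1*, *Lyz2* and 7 others) summed to 17659 to 25082 CPM over the 18 samples, while the T cell, neutrophil, mast cell, dendritic cell, erythroid and NK cell lists each reached at most 15.03 CPM in any sample. The T cell list was higher in SjSS than in B6 samples without overlap, at 11.1 to 12.99 against 8.66 to 10.7 CPM in control, 11.0 to 15.03 against 4.58 to 4.97 CPM with ACs and 6.47 to 8.48 against 4.59 to 5.65 CPM with CpG. Most of the T cell sum came from *Cd4*, with means of 11.7 CPM in SjSS and 3.67 CPM in B6 with ACs. Each other gene of that list stayed at or below 0.631 CPM. With ACs *Rag1* had means of 0.0193 CPM in SjSS and 0.167 CPM in B6, and *Lck* 0.543 and 0.271 CPM. Summed over 5 B cell genes the strains were also apart, at 41.6 to 56.1 CPM in SjSS against 27.6 to 36.5 CPM in B6 controls, 32.6 to 36.5 against 16.3 to 19.2 CPM with ACs and 33.9 to 47.9 against 24.0 to 26.6 CPM with CpG. Nearly all of that sum came from *Ighm* and *Cd79b*, and *Cd79a*, *Ms4a1* and *Pax5* each stayed at or below 0.485 CPM. The part of such cells in the strain ratios was not tested.

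A congenic strain carries the donor genome in the selected intervals. By design the rest of its genome comes from the recipient, apart from stretches that stay linked to an interval, leftover donor segments elsewhere and mutations that arose while the lines were bred apart. Genes outside the intervals can also differ because a gene within one acts on them. RNA-seq adds a further route, since reads of near-identical genes are divided among them by the counting software, and a base change in one copy can move reads to another copy on a different chromosome. These routes are background to the grouping used here, and none was tested.

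Among the 34 higher genes the strain ratio had a median of 2.60 in control, 2.81 in AC treated and 3.12 in CpG treated BMDMs, with extremes of 2.05 and 260.3 in control. Among the 10 lower genes B6 exceeded SjSS by a median of 5.15, 10.6 and 5.97. For 32 of the 44 genes the 3 ratios lay within a factor of 2 of each other. The ratio was largest with ACs for 16 genes, in control for 13 and with CpG for 15. The 3 SjSS and 3 B6 samples did not overlap in any treatment for 43 of the 44 genes, against a background of 4.85% of the 10270 genes, and all 9 SjSS samples stood apart from all 9 B6 samples for 29 genes, against 0.75%. Since the selection used these values, nothing is read from either share. The exception was *Slfn4*, whose CpG treated samples overlapped. Nearest inside the limit lay *Slfn4*, *Igf2bp3* and *Pianp*, whose smallest ratios were 2.001, 2.001 and 2.01. Just outside on the same side were *Npy*, *Gzmd* and *Flrt2* at 1.96, 1.95 and 1.94. On the lower side *Sema6d*, *Rsph9* and *Spic* qualified at 2.14, 2.19 and 2.32, and *Ppp1r9a*, *Gdf3* and *Ahr* missed at 1.94, 1.94 and 1.92. The members were spread over 16 of the 17 eligible chromosomes, with 7 on chromosome 17 and 5 on chromosome 11.

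**Figure D1:**
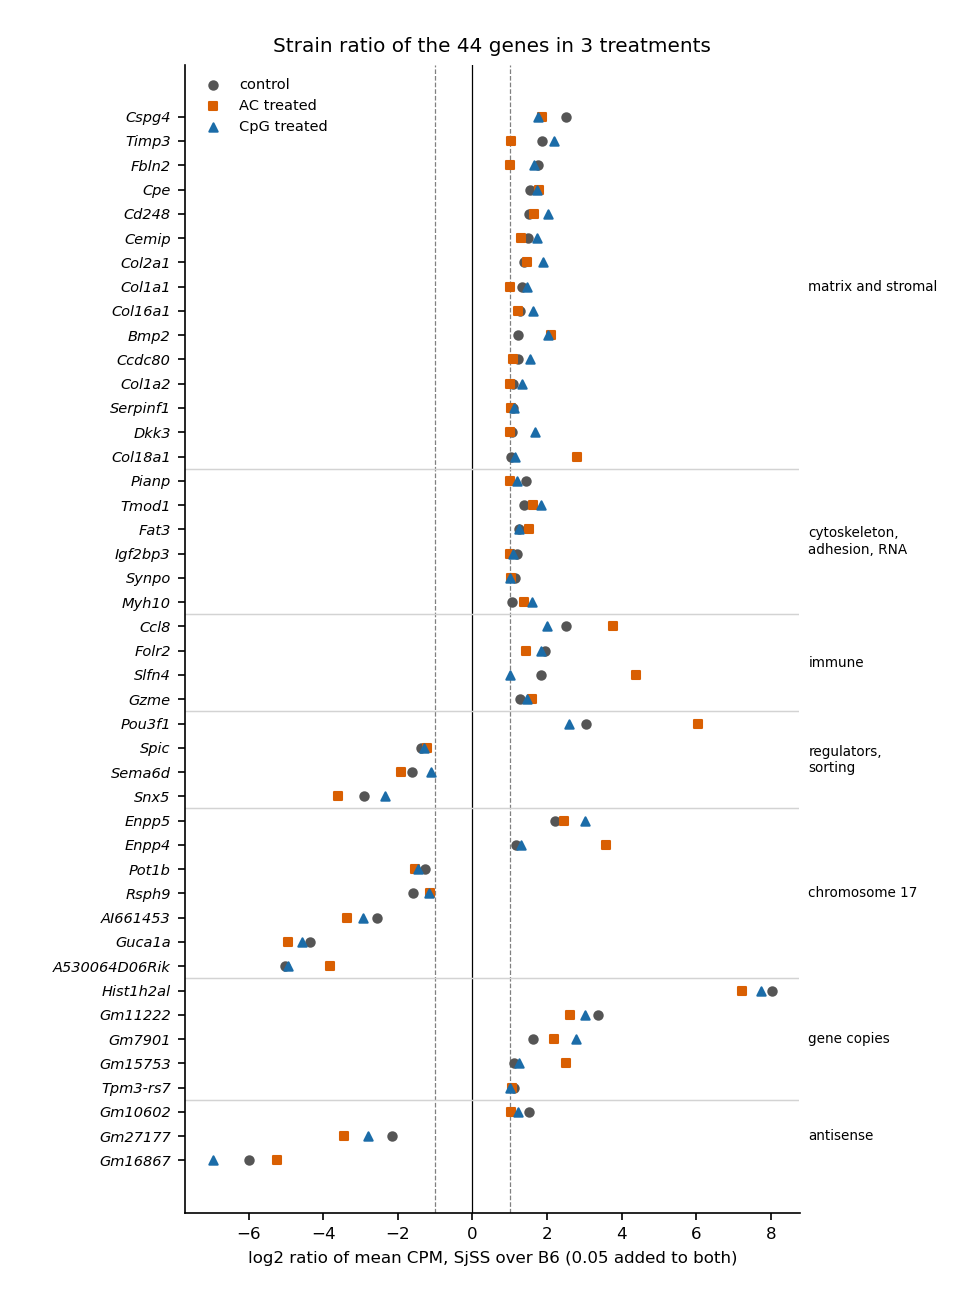
The log2 ratio of mean CPM in SjSS over B6 BMDMs (x axis, 0.05 CPM added to both means) is shown for each of the 44 genes (y axis, grouped by what they are known for) in control (gray circles), AC treated (orange squares) and CpG treated (blue triangles) BMDMs, with dashed lines at a ratio of 2 in either direction. Most points of the higher genes lie between 1 and 4 on the log2 scale, *Hist1h2al* stands above 7 in all 3 treatments, and *Pou3f1* and *Slfn4* with ACs lie far from their other points.

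Genes of the extracellular matrix and of stromal cells made up the largest group, with 15 genes, all higher in SjSS BMDMs. They were the fibrillar collagen genes *Col1a1*, *Col1a2* and *Col2a1*, the genes *Col16a1* and *Col18a1* of other collagens, *Timp3*, an inhibitor of matrix metalloproteinases, the matrix proteins *Fbln2* and *Ccdc80*, the secreted proteins *Serpinf1*, *Dkk3*, *Cpe* and *Bmp2*, *Cemip*, which acts on hyaluronan, and the surface proteins *Cd248* and *Cspg4*, known from pericytes and fibroblasts. Their median ratio was 2.50 in control, 2.34 with ACs and 3.22 with CpG. Summed over the 15 genes, control B6 BMDMs held 147 ± 62.6 CPM (SD, n = 3) and control SjSS BMDMs 365 ± 43.3 CPM. The sums were 146 ± 16.9 against 328 ± 31.3 CPM with ACs and 97.4 ± 33.9 against 275 ± 30.8 CPM with CpG.

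Type I collagen is the main collagen of bone and skin, and its chains are encoded by both leading genes of the group. *Col1a1* measured 57.8, 16.8 and 43.9 CPM in control B6 against 76.9, 111 and 108 CPM in control SjSS BMDMs, 43, 31.7 and 28.7 against 61.3, 76.5 and 72.2 CPM with ACs, and 34.8, 14.7 and 34.8 against 63.2, 89.5 and 81.7 CPM with CpG. *Col1a2* measured 74, 23.7 and 58.9 CPM in control B6 against 94.6, 128 and 112 CPM in control SjSS BMDMs, 57.1, 44.5 and 39.7 against 85, 105 and 94.7 CPM with ACs, and 45.5, 17.9 and 40.6 against 76.9, 98.2 and 86.6 CPM with CpG. The lowest SjSS sample lay above the highest B6 sample in each treatment for both genes. Yet the B6 samples varied widely, since replicate 2 of the control group held less than the other B6 controls, and the same number was lowest with CpG but not with ACs. *Cspg4* measured 0.263, 0.155 and 0.232 CPM in control B6 against 1.22, 2.02 and 1.19 CPM in control SjSS BMDMs, 0.392, 0.271 and 0.228 against 1.21, 1.54 and 0.897 CPM with ACs, and 0.305, 0.125 and 0.359 against 0.798, 1.5 and 0.762 CPM with CpG. *Cpe* measured 2.4, 0.775 and 1.72 CPM in control B6 against 4.25, 4.89 and 5.55 CPM in control SjSS BMDMs, 1.61, 1.39 and 1.09 against 4.87, 4.56 and 5.12 CPM with ACs, and 0.896, 1.13 and 1.39 against 2.85, 4.41 and 4.37 CPM with CpG. *Cd248* measured 0.665, 0.155 and 0.444 CPM in control B6 against 1.15, 1.14 and 1.62 CPM in control SjSS BMDMs, 0.351, 0.502 and 0.251 against 0.909, 1.05 and 1.83 CPM with ACs, and 0.191, 0.226 and 0.338 against 0.73, 1.24 and 1.59 CPM with CpG. These 3 genes were low in every sample and separated fully by strain in each treatment, with ratios of 5.73, 3.65 and 3.41 for *Cspg4*, 2.95, 3.46 and 3.3 for *Cpe* and 2.88, 3.14 and 4.11 for *Cd248* in control, AC and CpG treated BMDMs. *Bmp2* measured 5.64, 6.26 and 5.67 CPM in control B6 against 13.4, 10.2 and 18 CPM in control SjSS BMDMs, 2.35, 3.52 and 3.44 against 13.1, 13.7 and 14.1 CPM with ACs, and 0.991, 2.13 and 3.23 against 8.8, 8.72 and 8.8 CPM with CpG. *Bmp2*, a ligand of the TGF-β superfamily that drives bone formation, was 2.36-fold higher in SjSS controls and 4.33-fold higher with ACs. *Timp3* measured 20.7, 7.79 and 18.1 CPM in control B6 against 59.9, 67.9 and 43.8 CPM in control SjSS BMDMs, 31.7, 31.8 and 33.2 against 55.1, 76.6 and 65.3 CPM with ACs, and 7.06, 4.39 and 7.24 against 29.6, 33.8 and 22.4 CPM with CpG. The AC treated B6 samples of *Timp3* all lay above the B6 controls, while the control and AC treated SjSS samples shared a range of 43.8 to 76.6 CPM.

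Replicate 2 of the control B6 group was the lowest of its group for 13 of the 15 genes, and with CpG replicate 2 was lowest for 11. The sum over the 15 genes was 76.1 CPM in that control sample against 196 and 168 CPM in the other B6 controls. Of the 15, 9 still met the rule without that sample, and 8 of 15 without replicate 2 of all 3 B6 groups. *Col1a1* then had ratios of 1.94, 1.95 and 2.24, and *Col1a2* had 1.68, 1.96 and 2.03. Leaving out replicate 2 of all 3 groups together was chosen after the data were seen. Of the 7 genes on the fibroblast list, *Col1a1* and *Col1a2* were members, and *Col3a1*, *Pdgfra* and *Pdgfrb* were measured without meeting the ratio. *Col3a1*, which codes for type III collagen, had strain ratios of 1.18, 0.66 and 1.33, *Pdgfrb* 1.38, 1.03 and 1.302, and *Pdgfra* 1.35, 1.08 and 0.98. *Col3a1* lies on chromosome 1 and so was not eligible whatever its ratios. *Dcn* stayed below 1 CPM in every sample with ratios of 1.96, 2.25 and 2.41, and *Lum*, a marker of fibroblasts, was at or near 0 in all 18 samples. The 5 genes of the list that were not members summed to 13.4 ± 5.44 CPM in control B6 and 16.97 ± 3.92 CPM in control SjSS BMDMs (SD, n = 3), to 19.6 ± 4.52 and 15.6 ± 2.21 CPM with ACs and to 12.9 ± 5.48 and 16.9 ± 1.26 CPM with CpG, and the samples of the strains overlapped in each treatment. The osteoclast list summed to 220.2 to 298 CPM in control B6 and 418 to 487 CPM in control SjSS BMDMs, nearly all of it from *Acp5*, *Atp6v0d2* and *Mmp9*. With ACs the list summed to 219 to 240 CPM in B6 against 421 to 477 CPM in SjSS. With CpG the strains were closer, at 452 to 467 against 500 to 611 CPM. *Ctsk*, the collagen-degrading protease of osteoclasts, ran the other way with SjSS to B6 ratios of 0.50, 0.47 and 0.39 and lies on chromosome 3, while *Dcstamp* and *Ocstamp* had control ratios of 1.43 and 0.48 at group means under 1 CPM. In bulk RNA, more cells of a type and more RNA per cell cannot be told apart, and the part of either in these ratios was not tested.

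**Figure D2:**
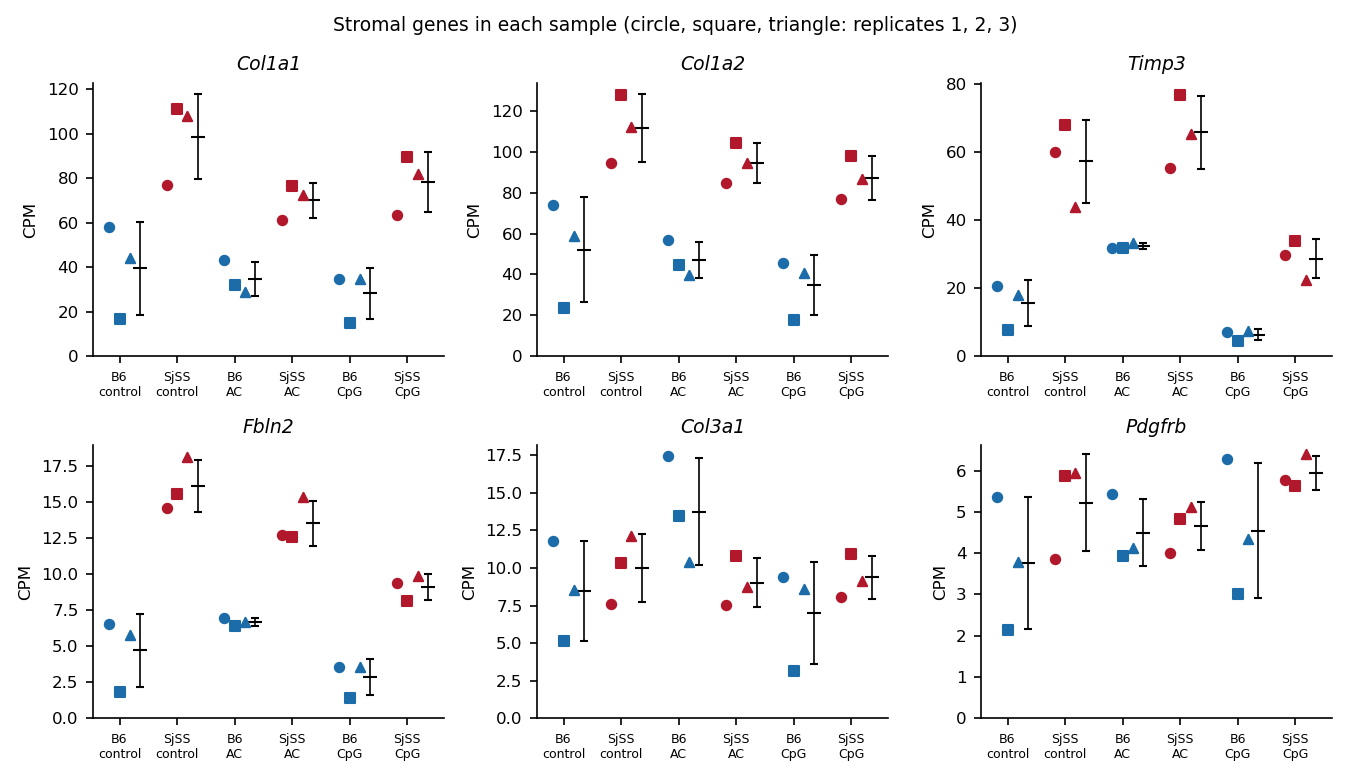
CPM (y axis, from 0) of 6 genes is shown for each sample of the 6 groups (x axis, B6 in blue and SjSS in red), with circles, squares and triangles for replicates 1, 2 and 3 and a black bar for the mean ± SD of 3. *Col1a1*, *Col1a2*, *Timp3* and *Fbln2* separate by strain in each treatment with the B6 square lowest in control. *Col3a1*, which was not eligible, and *Pdgfrb*, which did not meet the rule, overlap.

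The next 6 genes code for parts of the cytoskeleton, for adhesion or for RNA binding, and all were higher in SjSS BMDMs. *Myh10*, a non-muscle myosin heavy chain, had ratios of 2.08, 2.64 and 3.03, *Tmod1*, which caps actin filaments, 2.62, 3.08 and 3.62, and *Synpo*, an actin-associated protein, 2.21, 2.04 and 2.03. *Igf2bp3*, an RNA-binding protein, had 2.31, 2 and 2.11 and *Pianp*, a ligand of the receptor PILRα, 2.72, 2.01 and 2.29. *Fat3* measured 3.62, 2.86 and 4.59 CPM in control B6 against 9.87, 8.31 and 8.41 CPM in control SjSS BMDMs, 1.84, 1.06 and 1.35 against 4.07, 3.77 and 4.52 CPM with ACs, and 0.762, 0.928 and 1.52 against 1.73, 3.65 and 2.4 CPM with CpG. *Fat3*, an atypical cadherin, kept a ratio between 2.36 and 2.85 and its means were lower with both treatments than in control in both strains. Without replicate 2 of the 3 B6 groups, *Myh10*, *Synpo* and *Igf2bp3* no longer met the rule.

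The immune group held 4 genes, all higher in SjSS BMDMs. *Folr2* codes for folate receptor β, a surface protein of tissue-resident macrophages. *Folr2* measured 36.9, 80.8 and 84 CPM in control B6 against 245, 257 and 272 CPM in control SjSS BMDMs, 49.2, 92.9 and 104 against 216, 239 and 208 CPM with ACs, and 27.5, 52.2 and 58.2 against 162, 171 and 161 CPM with CpG. Every SjSS sample exceeded every B6 sample. Replicate 1 was the lowest of the B6 samples in each treatment. *Ccl8* measured 0.35, 0.354 and 0.791 CPM in control B6 against 3.75, 2.54 and 2.98 CPM in control SjSS BMDMs, 0.351, 0.406 and 0.593 against 8.14, 6.92 and 5.44 CPM with ACs, and 0.248, 0.753 and 0.803 against 2.87, 1.88 and 2.96 CPM with CpG. *Ccl8*, a chemokine that attracts monocytes and T cells, stood below 1 CPM in all 9 B6 samples and at or above 1.88 CPM in all 9 SjSS samples. Its ratio was 5.73 in control and 13.8 with ACs. *Slfn4* measured 1.82, 3.83 and 4.13 CPM in control B6 against 12.7, 12 and 10.6 CPM in control SjSS BMDMs, 2.64, 5.8 and 6 against 112, 86.6 and 107 CPM with ACs, and 8.31, 21.4 and 19.1 against 36.4, 19.7 and 41.8 CPM with CpG. *Slfn4*, a myeloid gene of the Schlafen family, was thus separated by strain in control and more widely with ACs, with ratios of 3.56 and 20.9, while the CpG samples overlapped. Its neighbour *Slfn3* shares 96.2% identity over 1172 aligned bases and had ratios of 1.44, 5.55 and 0.94, so a division of reads between the pair cannot be separated from these values. *Gzme*, a granzyme, had ratios of 2.44, 3.05 and 2.74. Its 93.8% identical neighbour *Gzmd* had 2.001, 2.57 and 2.32 and missed the rule only through the 0.05 CPM added to both means.

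A stretch of 4.09 Mb on chromosome 17 (chr17:44078813-48167270, mm10) held 6 members of 57 genes at the level of the rule, 10.5%. The rest of chromosome 17 held 1 member of 563 genes (0.178%) and the other eligible chromosomes 37 of 9650 (0.383%). The limits of the stretch were drawn from the members themselves, so these shares describe it and were not tested. Of the 57 genes, 8 differed by 1.5-fold or more in the same direction in all 3 treatments, against 7 of 563 on the rest of the chromosome. The stretch is distal to the major histocompatibility complex: none of the 16 genes of that region in the table (*H2-K1*, *H2-D1*, *Tap1* and others) met the rule. At its proximal end lie *Enpp5* (chr17:44078813-44086567) and *Enpp4* (chr17:44096308-44105809), which code for related ectonucleotide pyrophosphatases and are separated by 9741 bases. *Enpp5* measured 2.92, 1.77 and 2.05 CPM in control B6 against 10.6, 8.28 and 12.9 CPM in control SjSS BMDMs, 2.19, 2.59 and 1.85 against 12, 11.7 and 13.6 CPM with ACs, and 1.03, 0.703 and 0.972 against 7.62, 6.74 and 8.45 CPM with CpG. *Enpp4* measured 8.26, 9.14 and 7.12 CPM in control B6 against 17.6, 18.6 and 19.4 CPM in control SjSS BMDMs, 13.9, 15.2 and 14.9 against 179, 169.7 and 183 CPM with ACs, and 12.4, 20.6 and 19 against 46.2, 35.8 and 47.9 CPM with CpG. Both genes were higher in every SjSS sample than in any B6 sample of the same treatment. *Enpp5* had ratios of 4.64, 5.54 and 8.05, and *Enpp4* 2.26, 12 and 2.49, so that the AC treated SjSS samples of *Enpp4* stood far above all other samples.

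The other 4 members of the stretch were lower in SjSS BMDMs. *Rsph9* (chr17:46122035-46144216) codes for a radial spoke protein of cilia. *Rsph9* measured 1.73, 2.32 and 2.14 CPM in control B6 against 0.446, 0.684 and 0.843 CPM in control SjSS BMDMs, 1.2, 1.45 and 1.39 against 0.541, 0.789 and 0.43 CPM with ACs, and 0.839, 1.2 and 1.29 against 0.547, 0.431 and 0.416 CPM with CpG. All 9 SjSS samples reached at most 0.843 CPM, and B6 exceeded SjSS by 2.99, 2.19 and 2.25. *Guca1a* (chr17:47394560-47400584), whose product is a calcium sensor of photoreceptors, and *AI661453* (chr17:47436615-47470638), an expressed sequence without a named function, lie 36031 bases apart. *Guca1a* measured 3.97, 4.32 and 4.42 CPM in control B6 against 0.203, 0.0326 and 0.247 CPM in control SjSS BMDMs, 3.53, 4.29 and 3.28 against 0.0866, 0.0701 and 0.0561 CPM with ACs, and 3.95, 4.64 and 3.11 against 0.205, 0.101 and 0.0462 CPM with CpG. *AI661453* measured 3.87, 3.23 and 4.07 CPM in control B6 against 0.587, 0.456 and 0.74 CPM in control SjSS BMDMs, 3.32, 3.8 and 2.17 against 0.281, 0.245 and 0.243 CPM with ACs, and 1.24, 1.63 and 1.69 against 0.182, 0.0761 and 0.208 CPM with CpG. The ratios of B6 to SjSS were 20.3, 31 and 23.5 for *Guca1a* and 5.85, 10.3 and 7.64 for *AI661453*. *A530064D06Rik* (chr17:48151896-48167270) closes the stretch. *A530064D06Rik* measured 47.9, 66.4 and 61.7 CPM in control B6 against 1.92, 1.66 and 1.69 CPM in control SjSS BMDMs, 50.5, 72.4 and 67.4 against 4.96, 3.9 and 4.51 CPM with ACs, and 41, 63 and 54.4 against 2.35, 1.3 and 1.37 CPM with CpG. B6 exceeded SjSS by 32.5, 14.1 and 30.6. Its paralog *B430306N03Rik*, 95.8% identical over 598 aligned bases, had SjSS to B6 ratios of 1.48, 1.01 and 1.70. The paralog had means of 166 CPM in control B6 and 245 CPM in control SjSS BMDMs. Summed, the pair had SjSS to B6 ratios of 1.10, 0.76 and 1.14 in control, AC and CpG treated BMDMs. How the counting divided reads between them was not tested. Another copy, *9830107B12Rik*, 91.4% identical over 1857 bases, was near 0 in B6 and at a mean of 0.548 CPM in SjSS controls. The 7th member of chromosome 17, *Pot1b* (chr17:55652025-55712628), a protein of telomere ends, lies outside the stretch. *Pot1b* measured 22.1, 21.5 and 18.9 CPM in control B6 against 8.27, 8.18 and 9.44 CPM in control SjSS BMDMs, 16.1, 16.3 and 19.6 against 6.19, 4.93 and 6.8 CPM with ACs, and 43.2, 42.2 and 45.1 against 14.7, 15.6 and 17.3 CPM with CpG. Its strains were fully apart in each treatment, and CpG treated samples of either strain lay above their controls.

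**Figure D3:**
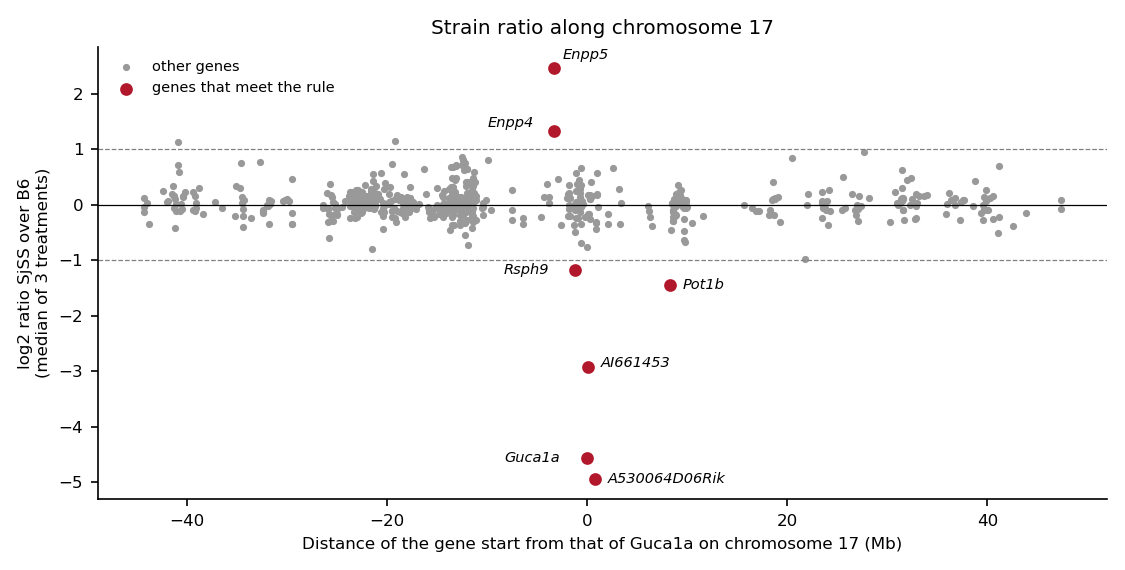
The median over the 3 treatments of the log2 ratio of SjSS to B6 (y axis) is plotted against the distance of each gene's start from that of *Guca1a* (x axis, Mb) for the genes of chromosome 17 at the level of the rule, with members in red and dashed lines at a ratio of 2. The 6 members within about 4 Mb include both directions, and the nearby gray points lie mostly between the dashed lines.

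All 5 genes of the next group have a near-identical copy elsewhere. For 3 of them the copy lies on chromosome 3, for 1 on chromosome 1 and for 1 in the stretch of chromosome 17, so a member outside chromosomes 1 and 3 can share its reads with a gene within them. The pairs are shown by 80 bases of each, in lower case and 5′ to 3′ in the sense of the transcript, with capitals at the bases where the pair differs. Each window has the most differences among those compared and ends with one, so it does not show the identity of the whole alignment. The sequences were read from the GENCODE transcripts of release M21 on the mm10 assembly, and for the gene on chromosome 1, 3 or 17 the window lies in coding sequence. *Tpm3-rs7* (chr14:113314723-113314802, plus strand) and *Tpm3* (chr3:90079779-90079858, plus strand) are 99.1% identical over 2108 aligned bases:
Tpm3-rs7: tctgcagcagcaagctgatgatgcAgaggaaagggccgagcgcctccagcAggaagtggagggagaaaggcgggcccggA
Tpm3: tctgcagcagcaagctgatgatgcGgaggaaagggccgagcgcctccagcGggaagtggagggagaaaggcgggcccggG
*Hist1h2al* (chr13:51202946-51203025, minus strand) and *Hist2h2aa2* (chr3:96240116-96240195, minus strand) are 99.4% identical over 339 bases:
Hist1h2al: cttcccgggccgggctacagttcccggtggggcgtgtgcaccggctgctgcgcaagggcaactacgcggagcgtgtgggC
Hist2h2aa2: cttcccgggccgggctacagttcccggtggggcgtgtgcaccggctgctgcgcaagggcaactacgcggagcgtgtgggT
*Gm7901* (chr8:75711768-75711847, minus strand) and *Phgdh* (chr3:98314188-98314267, minus strand) are 98.7% identical over 1597 bases:
Gm7901: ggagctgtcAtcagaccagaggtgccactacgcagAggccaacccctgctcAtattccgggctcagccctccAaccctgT
Phgdh: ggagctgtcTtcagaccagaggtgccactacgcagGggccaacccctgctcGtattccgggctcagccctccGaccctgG
*Gm15753* (chr5:137720461-137720540, minus strand) and *Sp110* (chr1:85584939-85585018, minus strand) are 96.5% identical over 1058 bases:
Gm15753: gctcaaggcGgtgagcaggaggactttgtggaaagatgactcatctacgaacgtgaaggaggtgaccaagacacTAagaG
Sp110: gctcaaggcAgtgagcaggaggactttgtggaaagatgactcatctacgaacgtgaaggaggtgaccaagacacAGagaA
*Gm11222* (chr4:69853963-69854042, plus strand) and *Rpl7l1* (chr17:46781810-46781889, minus strand) are 95.8% identical over 745 bases:
Gm11222: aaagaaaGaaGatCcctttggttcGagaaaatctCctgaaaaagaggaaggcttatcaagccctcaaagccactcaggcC
Rpl7l1: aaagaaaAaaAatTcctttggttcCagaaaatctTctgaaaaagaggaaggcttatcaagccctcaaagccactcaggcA

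*Tpm3* codes for a tropomyosin, which winds around actin filaments, and *Tpm3-rs7* is named as a related sequence. *Tpm3-rs7* measured 336, 324 and 335 CPM in control B6 against 717, 721 and 701 CPM in control SjSS BMDMs, 372, 376 and 359 against 770.1, 769 and 791 CPM with ACs, and 449, 429 and 417 against 885, 839 and 885 CPM with CpG. *Tpm3* ran the other way, with 507, 473 and 443 CPM in control B6 against 119, 117 and 127 CPM in control SjSS BMDMs. B6 exceeded SjSS for *Tpm3* by 3.92, 4.39 and 3.58 in the 3 treatments. The sum of the pair was 842, 797 and 778 CPM in control B6 and 836, 839 and 827 CPM in control SjSS BMDMs, with strain ratios of 1.04, 1.03 and 1.02. The summed values of the strains overlapped in control and CpG treated BMDMs, and with ACs every SjSS sum lay slightly above the B6 sums. What differed by strain was mainly how the sum was divided between the pair. *Hist1h2al* and the *Hist2h2aa* genes code for H2A histones. *Hist1h2al* measured 0, 0.0229 and 0 CPM in control B6 against 14.6, 14.2 and 16.1 CPM in control SjSS BMDMs, 0.0652, 0 and 0 against 10.9, 11.7 and 9.6 CPM with ACs, and 0, 0.0518 and 0 against 14, 15 and 13.9 CPM with CpG. Over the 3 samples of a group *Hist1h2al* had 1, 3 and 2 counts in control, AC and CpG treated B6 BMDMs against 1938, 1684 and 1806 in SjSS. The control ratio of counts per column total was 2321 with a 95% counting interval of 416 to 91730.2, which covers counting error only, and the 0.05 CPM added by the rule lowers it to 260.3. *Hist2h2aa2* held 8.04, 8.94 and 3.88 CPM in control B6 and 0.377, 0.0111 and 0.0595 CPM in control SjSS BMDMs, and B6 exceeded SjSS by 46.6, 30.6 and 45.7. Its neighbour *Hist2h2aa1* had SjSS to B6 ratios of 0.99, 0.77 and 0.78. The 3 genes together summed to 28.7 ± 2.10 CPM in control B6 and 36.6 ± 1.27 CPM in control SjSS (SD, n = 3), to 30.8 ± 2.71 and 30.1 ± 3.57 CPM with ACs, and to 26.1 ± 4.59 and 29.1 ± 2.63 CPM with CpG. A further copy at the same identity to *Hist1h2al*, *Gm20634*, overlaps *Hist2h2aa1* on the same strand and had SjSS to B6 ratios of 1.62, 0.83 and 1.19. With it the sums were 40.9 ± 2.87 and 56.3 ± 3.49 CPM in control, 41.1 ± 2.75 and 38.7 ± 2.97 CPM with ACs, and 41.7 ± 7.26 and 47.7 ± 5.22 CPM with CpG.

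**Figure D4:**
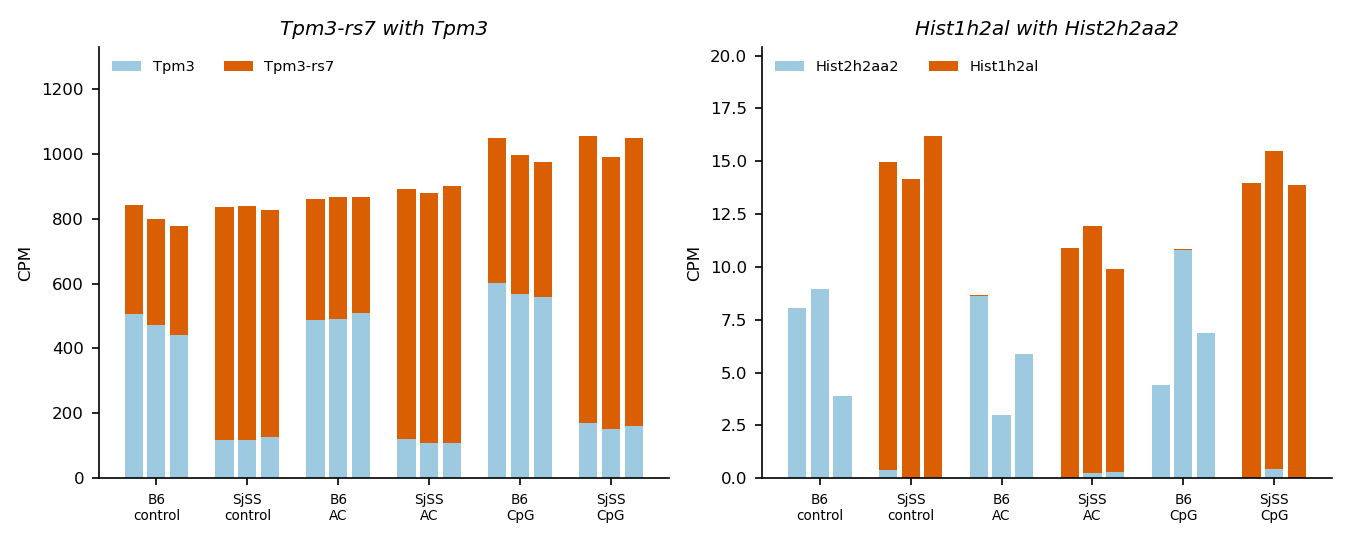
Stacked bars give CPM (y axis, from 0) of a member (orange) on top of its copy on chromosome 3 (blue) for each of the 3 samples of the 6 groups (x axis). For *Tpm3-rs7* with *Tpm3* the bars of both strains reach like heights in a treatment with the division shifted, and for *Hist1h2al* with *Hist2h2aa2* the blue of B6 is replaced by orange in SjSS and the SjSS bars are higher.

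The other 3 genes of the group are pseudogenes by their annotation. Their copies *Phgdh* and *Sp110* were higher in SjSS BMDMs as the members were, and the copy *Rpl7l1* was lower. *Gm7901* measured 1.37, 0.619 and 1.06 CPM in control B6 against 2.16, 3.72 and 3.81 CPM in control SjSS BMDMs, 1.41, 1.76 and 0.573 against 5.71, 6.04 and 5.79 CPM with ACs, and 0.911, 0.554 and 0.767 against 4.56, 5.8 and 5.72 CPM with CpG. *Phgdh*, an enzyme of serine synthesis, was itself 2.04-, 1.83- and 2.21-fold higher in SjSS than in B6 BMDMs. *Gm15753* measured 4.37, 4.84 and 5.02 CPM in control B6 against 10.1, 9.74 and 10.9 CPM in control SjSS BMDMs, 4.7, 5.18 and 5.13 against 30.7, 26.9 and 29.3 CPM with ACs, and 3.83, 6.76 and 4.37 against 14, 8.28 and 13.4 CPM with CpG. Replicate 2 held the lowest of the CpG treated SjSS values. *Sp110*, a nuclear body protein within chromosome 1, had ratios of 1.36, 3.30 and 1.55, the AC ratio being the largest for both genes of the pair. *Gm11222* measured 0.421, 0.222 and 0.291 CPM in control B6 against 3.21, 3.97 and 3.89 CPM in control SjSS BMDMs, 0.392, 0.327 and 0.503 against 3.04, 2.72 and 2.6 CPM with ACs, and 0.516, 0.729 and 0.425 against 4.8, 4.38 and 5.56 CPM with CpG. *Gm11222* reached at most 0.729 CPM in the 9 B6 samples. Its copy *Rpl7l1*, a ribosomal protein-like gene, lies in the stretch of chromosome 17 and had ratios of 0.62, 0.46 and 0.67, at a B6 control mean of 88.9 CPM. How the counting divided reads within each pair was not tested.

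In all, 11 members overlap a gene of the table on the opposite strand, and 3 of them are described here as the antisense group. *Gm27177* and *Gm10602* are annotated as antisense and *Gm16867* as protein coding. *Gm16867* (chr14:69363504-69503362) and *Gm27177* (chr14:69582164-69683286) share 100% identity over 2946 bases and lie 78802 bases apart. *Gm16867* measured 16.2, 15.5 and 17.7 CPM in control B6 against 0.185, 0.421 and 0.0262 CPM in control SjSS BMDMs, 20.5, 20.6 and 21.9 against 0.316, 0.216 and 1 CPM with ACs, and 27.3, 31.9 and 28.3 against 0.095, 0.336 and 0.129 CPM with CpG. *Gm27177* measured 4.23, 1.54 and 1.55 CPM in control B6 against 0.821, 0.252 and 0.457 CPM in control SjSS BMDMs, 2.42, 3.27 and 4.35 against 0.497, 0.144 and 0.141 CPM with ACs, and 4.36, 2.04 and 3.46 against 0.562, 0.278 and 0.457 CPM with CpG. B6 exceeded SjSS by 63.3, 37.5 and 124 for *Gm16867* and by 4.45, 10.9 and 6.92 for *Gm27177*, and the SjSS samples of *Gm16867* reached at most 1.00 CPM. On the opposite strand they overlap *Entpd4*, *Gm21685* and *Loxl2*. *Entpd4*, a Golgi nucleotidase on the list of genes that differ among C57BL/6 substrains, had ratios of 0.69, 0.64 and 0.70. Of the 9 substrain genes in the table none was a member. *Wdfy1*, one of the 9, had ratios of 3.62, 3.11 and 4.44 but lies on chromosome 1, which was not eligible. *Nnt*, which carries a deletion in C57BL/6J, had 0.80, 0.78 and 0.86. *Gm10602* (chr7:101836503-101842771) overlaps *Folr2* by 2783 bases on the opposite strand. *Gm10602* measured 2.89, 4.96 and 5.4 CPM in control B6 against 12.3, 12.2 and 14.1 CPM in control SjSS BMDMs, 3.75, 5.21 and 5.05 against 9.01, 10.3 and 9.83 CPM with ACs, and 1.67, 4.37 and 3.56 against 6.43, 7.84 and 8.42 CPM with CpG. Its ratios of 2.89, 2.07 and 2.34 stood beside 3.83, 2.69 and 3.59 for *Folr2*. Whether the counting used strand is not given in the sources used here, so reads of a gene and of its antisense partner cannot be told apart.

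The last 4 genes code for transcription factors, a sorting nexin and a semaphorin. *Snx5* codes for a sorting nexin of endosomal tubules. *Snx5* measured 555, 545 and 496 CPM in control B6 against 76.1, 67.6 and 68.3 CPM in control SjSS BMDMs, 439, 422 and 432 against 37.9, 33.7 and 35.4 CPM with ACs, and 178, 162 and 176 against 36.5, 34.5 and 31.6 CPM with CpG. B6 exceeded SjSS by 7.52, 12.1 and 5.02, with no SjSS sample within reach of a B6 sample of its treatment. The gene on its opposite strand, *Mgme1*, had group means between 10.3 and 18.2 CPM and is no member. *Spic* measured 8.58, 9.47 and 6.99 CPM in control B6 against 3.12, 3.03 and 3.41 CPM in control SjSS BMDMs, 57.3, 67.6 and 64.4 against 24.5, 27.8 and 29.2 CPM with ACs, and 87, 81 and 72.7 against 28.9, 27.2 and 41.8 CPM with CpG. *Spic*, an Ets family factor of red pulp macrophages and of heme handling, was lower in SjSS by 2.59, 2.32 and 2.46. *Sema6d* measured 12.3, 8.92 and 9.55 CPM in control B6 against 3.16, 3.1 and 3.68 CPM in control SjSS BMDMs, 4.64, 3.54 and 2.9 against 1.02, 0.754 and 1.05 CPM with ACs, and 2.8, 3.14 and 2.77 against 1.19, 1.29 and 1.5 CPM with CpG. *Sema6d*, a transmembrane semaphorin, was lower by 3.06, 3.78 and 2.14. *Pou3f1* measured 0.105, 0.487 and 0.27 CPM in control B6 against 3.71, 2.35 and 2.16 CPM in control SjSS BMDMs, 0.598, 0.599 and 1.23 against 63.6, 54.1 and 52.9 CPM with ACs, and 0.324, 0.427 and 0.782 against 4.68, 1.85 and 3.42 CPM with CpG. *Pou3f1*, a POU domain transcription factor, stood at or above 1.85 CPM in all 9 SjSS samples. Of the 9 B6 samples 1 passed 1 CPM. Its ratio was 8.26 in control, 66.2 with ACs and 6 with CpG.

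The response of each strain to treatment was tested with edgeR's quasi-likelihood test over 15789 genes, all 44 members among them, and a gene was called at a Benjamini-Hochberg adjusted p under 0.05 with a log2 fold change over 1.3 in size. The scaling of the test (TMM) differs from column totals: it adds 0.41 to the log2 response to ACs in SjSS, 0.07 to that in B6, 0.18 to the CpG response in B6 and 0.13 to that in SjSS. It would likewise add 0.30 to the strain ratio with ACs. To ACs, 2 members were called higher in B6 BMDMs, where 2.43% of all genes were, and 2 lower against 2.04%. In SjSS BMDMs 8 members were called higher against a background of 7.09%, and 1 lower against 5.83%. To CpG, 2 were called higher in B6 (5.86% of all genes) and 4 lower (6.88%), and in SjSS 3 higher (4.81%) and 2 lower (4.45%). The median log2 response of the 44 was -0.02 to ACs in B6, 0.30 to ACs in SjSS, -0.30 to CpG in B6 and -0.18 to CpG in SjSS, against 0.0015, -0.02, -0.04 and -0.01 over all genes. In all, 13 of the 44 members were called in at least 1 of the 4 responses, against 21.7% of all genes, and 27 had an adjusted p under 0.05 in at least 1, against 81.1%. On the adjusted p alone, 5 members were higher and 5 lower with ACs in B6, against 20% and 18.3% of all genes, and 14 and 4 in SjSS, against 28.6% and 29.4%. With CpG 8 were higher and 11 lower in B6, against 28.1% and 29.8%, and 9 and 8 in SjSS, against 27.8% and 26.4%. The AC and CpG responses of a strain share their control samples. The choice of members used the same group means, so their counts and medians beside those of all genes are descriptions.

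*Spic* was the one member called in all 4 responses. It rose with ACs by 2.99 ± 0.15 (SE, adjusted p = 2.63e-11) on the log2 scale in B6 and 3.50 ± 0.17 (SE, adjusted p = 1.18e-12) in SjSS BMDMs, and with CpG by 3.45 ± 0.15 (SE, adjusted p = 4.34e-13) and 3.48 ± 0.17 (SE, adjusted p = 2.52e-12). Its ratio of B6 to SjSS stayed between 2.32 and 2.59 throughout, and every treated sample lay above every control sample of its strain. *Sema6d* moved the other way, falling with ACs by 1.40 ± 0.16 in B6 (SE, adjusted p = 1.31e-06) and by 1.41 ± 0.19 in SjSS (SE, adjusted p = 3.03e-06). With CpG it was called in B6 at -1.64 ± 0.16 (SE, adjusted p = 5.94e-08) and had -1.19 ± 0.19 (SE, adjusted p = 2.17e-05) in SjSS, short of the fold threshold. The AC call of *Sema6d* in SjSS ended without AC replicate 2 (-1.27), and that in B6 without AC replicate 3 or control replicate 1 (both -1.26). *Fat3* was called lower in B6 with ACs at -1.31 ± 0.26 (SE, adjusted p = 0.000484) and with CpG in both strains, at -1.61 ± 0.27 (SE, adjusted p = 4.03e-05) in B6 and -1.65 ± 0.24 (SE, adjusted p = 1.08e-05) in SjSS. Its AC call ended without AC replicate 2 (-1.14), AC replicate 3 (-1.29) or control replicate 3 (-1.13).

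ACs raised 4 members by more than 3 on the log2 scale in SjSS BMDMs. Beside *Spic* they were *Pou3f1* with 4.77 ± 0.29 (SE, adjusted p = 3.68e-11), *Enpp4* with 3.67 ± 0.15 (SE, adjusted p = 8.58e-14) and *Slfn4* with 3.53 ± 0.34 (SE, adjusted p = 3.01e-08). In B6 BMDMs *Pou3f1* was called at 1.60 ± 0.54 (SE, adjusted p = 0.0251) from levels of at most 1.23 CPM, a call that ended without AC replicate 3 (1.19), control replicate 1 (1.15) or control replicate 3 (1.59). *Enpp4* had 0.92 ± 0.15 (SE, adjusted p = 7.06e-05) in B6, and *Slfn4* 0.65 ± 0.40 (SE, adjusted p = 0.226). Also called higher in SjSS were *Gm15753* at 1.91 ± 0.17 (SE, adjusted p = 1.59e-08), *A530064D06Rik* at 1.74 ± 0.25 (SE, adjusted p = 6.25e-06), *Ccl8* at 1.55 ± 0.29 (SE, adjusted p = 0.000119) and *Gm16867* at 1.90 ± 0.59 (SE, adjusted p = 0.0101). In B6 these 4 had 0.15 ± 0.19 (SE, adjusted p = 0.575), 0.18 ± 0.16 (SE, adjusted p = 0.41), -0.09 ± 0.42 (SE, adjusted p = 0.894) and 0.42 ± 0.22 (SE, adjusted p = 0.14). The *Gm16867* call rests on SjSS levels of at most 1.00 CPM and ended without AC replicate 3 (0.94) or control replicate 3 (1.27) and in a fit of the 2 groups alone (adjusted p = 0.0529). The difference of a response between strains is the difference of 2 ratios that chose the genes and was not tested.

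CpG raised *Slfn4* by 2.50 ± 0.37 (SE, adjusted p = 9.84e-06) in B6 and 1.61 ± 0.33 (SE, adjusted p = 0.000344) in SjSS BMDMs, and the samples of the strains then overlapped. *Enpp4* was called with CpG in SjSS at 1.35 ± 0.14 (SE, adjusted p = 1.09e-07) and had 1.26 ± 0.15 (SE, adjusted p = 5.57e-07) in B6, on either side of the fold threshold, and the SjSS call ended without CpG replicate 3 (1.27). *Snx5* was called lower with CpG in B6 at -1.45 ± 0.07 (SE, adjusted p = 9.19e-13) and had -0.92 ± 0.07 (SE, adjusted p = 1.26e-09) in SjSS. *AI661453* was called lower in SjSS at -1.79 ± 0.35 (SE, adjusted p = 0.000259) and had -1.12 ± 0.22 (SE, adjusted p = 0.000261) in B6. *Pot1b* had 1.24 ± 0.10 (SE, adjusted p = 3.45e-09) in B6 and 1.01 ± 0.11 (SE, adjusted p = 2.27e-07) in SjSS, both short of the fold threshold.

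**Figure D5:**
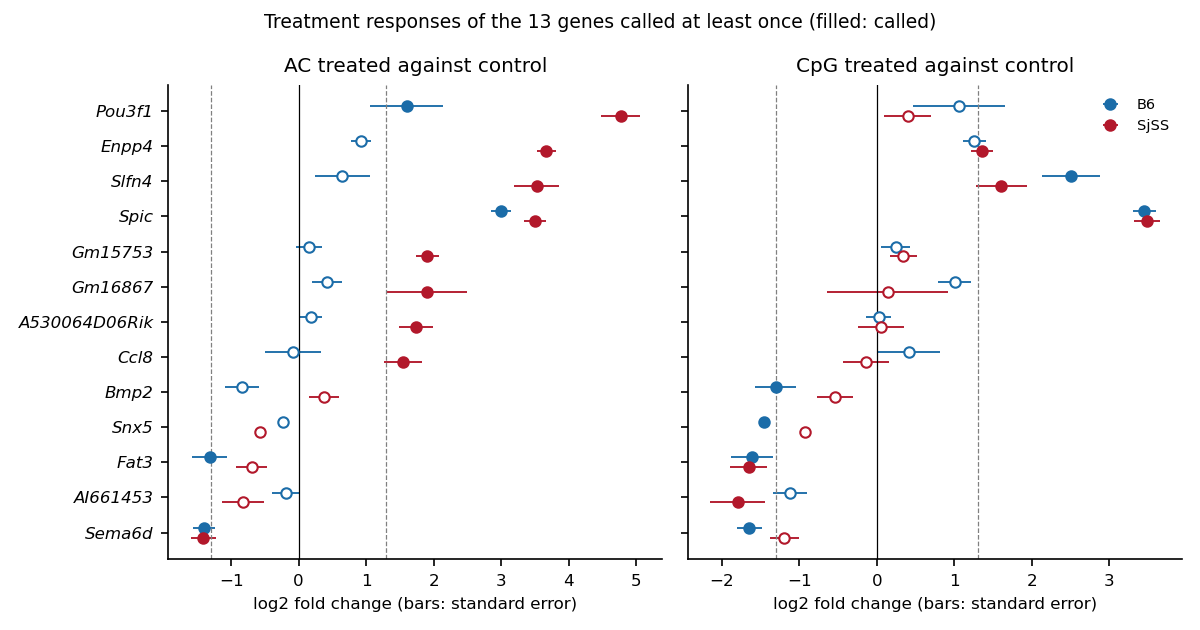
The log2 fold change with its standard error (x axis) of the 13 members called at least once (y axis) is shown for ACs (left) and CpG (right) in B6 (blue) and SjSS BMDMs (red), with filled points for calls and dashed lines at 1.3 in either direction. *Spic* is filled in both strains and both treatments, and *Pou3f1*, *Enpp4* and *Slfn4* with ACs have red points beyond 3 and blue points below 2.

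Of the 15 matrix and stromal genes edgeR called 0 with ACs in either strain, where 4.47% of all genes were called in B6 and 12.9% in SjSS, and DESeq2 also called 0. An unadjusted p under 0.05 was found for 3 of the 15 in B6 and 2 in SjSS, against 45.4% and 61.6% of all genes. With CpG an unadjusted p under 0.05 was found for 4 of the 15 in B6, against 61.8% of all genes, and 1 was called, against 12.7%. This was *Bmp2*, lower at -1.302 ± 0.26 (SE, adjusted p = 0.000297), at the fold threshold, and the call ended with DESeq2 (-1.27), with its size factors in edgeR (-1.28), with the 2 groups alone (-1.298), and without control replicate 2 (-1.24) or CpG replicate 1 (-0.94). In SjSS BMDMs the CpG call count of the 15 was 0 by both tools, against 9.26% of all genes with edgeR, with an unadjusted p under 0.05 for 4, against 58.8%. *Timp3* had 1.12 ± 0.25 (SE, adjusted p = 0.00135) with ACs in B6 and 0.61 ± 0.24 (SE, adjusted p = 0.0324) in SjSS, and -1.13 ± 0.27 (SE, adjusted p = 0.00154) and -0.87 ± 0.24 (SE, adjusted p = 0.00492) with CpG, each short of the fold threshold. Of the 4 transcription factor, sorting and guidance genes, 3 were called for ACs in both strains (*Pou3f1*, *Sema6d* and *Spic*). Of all genes 4.47% were called in B6 and 12.9% in SjSS, and the share called in both was not computed. The 4 were grouped after the values were seen, so nothing is read from this count.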

How the data were processed

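RNA-seq was performed on 18 BMDM samples. Per the labels and the methods of the study, the authors aligned reads to mm10 with STAR in Partek Flow and quantified genes with its E/M (expectation-maximization) tool, which divides reads that fit several genes. The deposited values are expected counts per gene, 41.1% of them not whole. They were rounded for the tests and left as deposited for CPM. Strandedness of the counting is not given in the sources used here.

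Genes were chosen from group means of CPM on column totals as the report states. The members, their groups and all gene lists were chosen with earlier results of these data known, and the grouping by role was made after the values were seen. Values in every sample are given for the 10 members of each direction with the largest smallest ratio, for the 4 largest calls of each response, for members on a list and for members within 1 Mb of another. A few further members are given for context, and 1 marker gene is not reported here.

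Responses were tested with edgeR 4.0.16 (TMM, filterByExpr, glmQLFit and glmQLFTest, all 18 samples with 1 mean for each of 6 groups, 3 samples each) with Benjamini-Hochberg adjustment over 15789 genes. Tested on simulated counts of the AC response in SjSS, the script recovered the changed genes. DESeq2 1.42.0 and the settings of the closing section served as alternatives. Equally numbered samples deviated together in the CpG comparison in B6 (correlations of 0.26, 0.264 and 0.137), and not in every pair of the other comparisons (0.0198 to 0.193). The main fit took the numbers as pairs in no comparison, and the replicate number as a block was an alternative. Near-identical copies were found with BLAST 2.17.0 among GENCODE M21 transcripts at 90% identity or more over 50% or more of the shorter transcript. This held for 14 members, 10 of them with such a copy in the table. *Spic* (52 matches), *Snx5* (33), *Rsph9* (8) and *Tmod1* (8) had 0 matches in the table, so sharing of their reads could not be examined. A match can rest on part of a short transcript, so it need not be a copy of the whole gene. The table gives the stop of a gene 1 base past its end, which was corrected, after which 33 of the 44 genes matched the start and end of GENCODE. Column totals of 30688336 to 57139662 counts limit the precision of genes near 1 CPM. Intervals cover counting error only.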

Additional observations from a re-analysis of the deposited data

Results flagged for a closer look

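*Col18a1*, whose product is a basement membrane collagen, moved in opposite directions with ACs in the strains. Its B6 samples held 4.78, 9.14 and 10.8 CPM in control and 4.04, 3.01 and 3.72 CPM with ACs, so every AC treated sample lay below every control. The SjSS samples held 19.002, 15.8 and 16.01 CPM in control and 30.2, 23.8 and 22.5 CPM with ACs, so every AC treated sample lay above every control. The log2 response was -1.13 ± 0.23 in B6 and 1.00 ± 0.20 in SjSS (SE, n = 3 in each group), a difference of 2.12, and the directions were opposite on column totals and with TMM. Neither response passed the fold threshold. The difference was not tested, because it is a difference of ratios that chose the gene.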

How the results depend on the processing

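The count of members moved with its limits: 151 genes (117 higher, 34 lower) at a ratio of 1.5, 13 (7 and 6) at a ratio of 3, 24 (19 and 5) at a mean of 5 CPM, and 27 (19 higher) with 0.5 CPM added to both means. It was 49 with TMM totals, 36 of the 44 among them, 38 with medians and 53 at a mean of 0.5 CPM. Leaving out 1 sample at a time gave 36 to 48 members (26 to 37 higher, 10 to 13 lower). Chosen after the data were seen, leaving out the B6 samples numbered 1 gave 53 with 39 of the 44, *Slfn4*, *Pianp*, *Igf2bp3*, *Gm10602* and *Col18a1* being lost, and leaving out those numbered 2 gave 37 with 33 of the 44. Leaving out 1 sample at a time, the calls ranged from 1 to 2 higher and 0 to 2 lower for ACs in B6, 7 to 9 and 0 to 1 for ACs in SjSS, 2 to 3 and 3 to 5 for CpG in B6, and 2 to 3 and 2 to 3 for CpG in SjSS. With no fold threshold the calls were 5 higher and 5 lower for ACs in B6, 14 and 4 for ACs in SjSS, 8 and 11 for CpG in B6, and 9 and 8 for CpG in SjSS. With the replicate number as a block the calls stayed at 2 higher and 2 lower for ACs in B6, 8 and 1 for ACs in SjSS, 2 and 4 for CpG in B6, and 3 and 2 for CpG in SjSS. Of 264 alternative values of the 24 calls, 246 kept direction and call, 18 kept the direction alone, and 0 reversed. The cause of these changes was not tested. Without replicate 2 of the 3 B6 groups, 8 of 15 matrix and stromal and 3 of 6 cytoskeleton, adhesion and RNA-binding genes still met the rule. The near-identical copies (5 of 5) and the antisense group with *Gm16867* (3 of 3) all did. Without replicate 1 of those groups the counts were 14 of 15, 4 of 6, 5 of 5 and 2 of 3. Members near 1 CPM are uncertain by their level, and the antisense group and the copies by the assignment of reads.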

Other observations

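For 5 members, genes outside the 44 were ranked by Pearson's correlation of log2 CPM (1 CPM added) over the 18 samples. Only genes of the eligible chromosomes with a mean of 1 CPM or more over all samples were ranked. Genes of chromosomes 1, 3, X, Y and M were not compared. The samples share libraries and groups, so these values are descriptions. *Col1a1* was closest to *Tuba1a* (0.98), *Mrc2* (0.95) and *Cnn1* (0.95). *Folr2* was closest to *Dennd2a* (0.96), *Adra1a* (0.95) and *Npy* (0.93), and *Npy* was also the gene that missed the rule most narrowly among the higher genes. *Snx5* was closest to *Ahr* (0.94), *Gdf3* (0.92) and *Mansc1* (0.92), and the first 2 of these are among the 3 genes that fell just short of the rule on the lower side. *Pou3f1* was closest to *Arhgef12* (0.99), *Bfar* (0.96) and *Samhd1* (0.96), and *Spic* to *Msantd3* (0.98), *Dnmt3l* (0.98) and *Mefv* (0.96).

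None of the 11 alternative activation genes in the table met the rule, but not all of them could. *Fn1*, on chromosome 1 and not eligible, had SjSS to B6 ratios of 2.74, 1.62 and 2.70 in control, AC and CpG treated BMDMs. *Chil3*, on chromosome 3 and not eligible, had 0.27, 0.68 and 0.30. *Ccl17* and *Ccl24* stayed below a mean of 1 CPM in each group. *Arg1*, the arginase of alternatively activated macrophages, had SjSS to B6 ratios of 0.64, 0.26 and 0.56 in control, AC and CpG treated BMDMs, and *Mrc1*, the mannose receptor, had 0.87, 1.77 and 1.17. Among gene families by name, 1 of 8 Schlafen genes at the level of the rule was a member (*Slfn4*), and 6 of 704 predicted genes were, beside 0.428% of all 10270 genes at that level.

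The lowest B6 sample carried the same replicate number in all 3 treatments for 15 of the 44 members, number 1 for 10 of them and number 2 for 5. The lowest SjSS sample did so for 17. The share over all genes was not computed, so nothing is read from these counts.

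On chromosome 1, 36 genes met the same ratios and levels, and on chromosome 3, 8 did. Chromosome X held 0.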
